A study of Mus musculus with 6 samples.

Results

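Cathepsins are the proteases of the lysosome, and cystatin C is a secreted inhibitor of the cysteine cathepsins. The 10 genes described here are Ctsa, Ctsb, Ctsc, Ctsd, Ctsh, Ctsk, Ctsl, Ctss and Ctsz, which encode 9 cathepsins, and Cst3, which encodes cystatin C. They were taken by gene symbol from count tables of 23282 rows, in which each of the 10 stood on 1 row. Primary acinar cells of the mouse pancreas, strain C57BL/6J, were profiled by 3′ tag sequencing in 3 cKO libraries of genotype ERRgamma -/- and 3 control libraries of wild-type genotype. ERRγ is an orphan nuclear receptor, and cKO stands for its conditional knock-out. Both groups were kept in the same culture medium, which held serum, epidermal growth factor and a trypsin inhibitor. The sources used here give neither the promoter that drove the deletion nor the time in culture, the age or the sex of the mice. They also do not say whether the libraries of a group came from separate animals, so p-values cover only the variation among these libraries, which could be technical.

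Most cathepsins are made as inactive precursors, tagged with mannose 6-phosphate in the Golgi and activated in acid compartments. In the acinar cell they matter for a further reason, because lysosomal enzymes can meet digestive zymogens there. Cathepsin B cleaves trypsinogen to active trypsin and is known as a trigger of trypsin activation in mouse models of pancreatitis, whereas cathepsin L cleaves trypsinogen to an inactive product. Cystatin C blocks cysteine cathepsins such as B, H, K, L and S but neither the aspartic protease cathepsin D nor the serine carboxypeptidase cathepsin A.

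The libraries held 15.2 to 17.0 M counts (M, mega) in cKO and 23.0 to 25.2 M in control. The 20 most abundant genes of each library took 27.3% to 56.8% of its reads in cKO and 85.2% to 86.5% in control, so the scale used matters for every gene. Esrrg, the gene of ERRγ, had 0, 9 and 1 reads in cKO libraries 1, 2 and 3 and 0 in each control library. It was thus not detected in the wild-type libraries at this depth, and its tags do not check the genotype labels, on which the grouping rests. Levels are in CPM (counts per M) of the effective library size, which uses TMM factors that set the bulk of genes to no change. The effective sizes were 33.2 to 60.0 M in cKO and 7.52 to 8.49 M in control. On library totals instead, log2 fold changes of all 13132 tested genes lay higher by a median of 3.26. "Rose" and "fell" below mean relative to the bulk of genes on the TMM scale.

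All 10 genes passed the test, and they parted into 8 that rose and 2, Ctsl and Cst3, that fell, although on library totals all 10 were higher in cKO, as were 96.4% of all tested genes. Ctsk, Ctsh and Ctss rose most, between 5.46-fold and 5.93-fold, followed by Ctsb at 2.89-fold. Ctsl and Cst3 fell by nearly the same factor, to levels 2.02-fold and 1.98-fold lower in cKO on the TMM scale, and both were higher on library totals, by 4.77-fold and 4.84-fold. Of all tested genes, 24% were called higher and 20.7% lower in cKO by edgeR's quasi-likelihood test at an adjusted p of 0.05. These were 3152 higher and 2716 lower genes, against 4628 and 1776 when libraries were scaled by totals outside the abundant and enzyme genes, a scale on which 8 of the 10 genes were again called higher and 2 lower. The median log2 fold change of the 10 genes was 1.16 and that of all tested genes 0.10. The 3 cKO libraries lay wholly above the 3 control libraries for the 8 genes that rose and wholly below them for Ctsl and Cst3. Among all tested genes, the groups were parted in this way upward in 30.7% and downward in 25.4%.

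**Figure D1:**
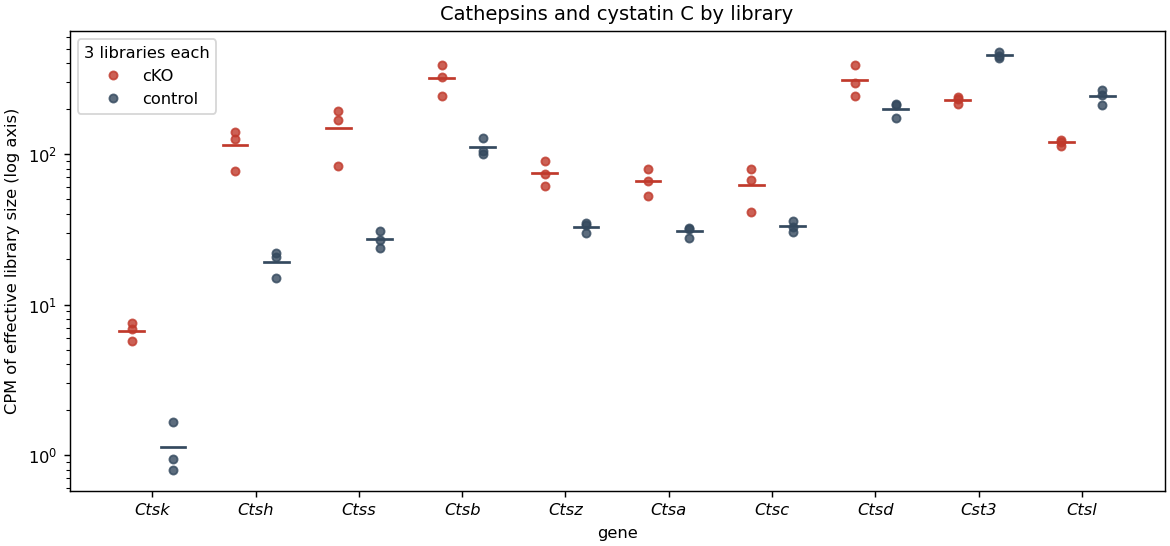
CPM of the effective library size (vertical log axis) of the 10 genes in each of 3 cKO and 3 control libraries, ordered by fold change, with bars at the group means. Every cKO point lies above every control point from Ctsk to Ctsd, and below for Cst3 and Ctsl, a direction that holds on the TMM scale and turns on library totals.

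Ctsb encodes cathepsin B, the protease that activates trypsinogen, and is found on the plus strand of chromosome 14 (63122462 to 63145923, build GRCm38). Its level stood at 393, 245 and 322 CPM in cKO libraries 1, 2 and 3, against 105, 99.6 and 127 CPM in control libraries 1, 2 and 3. The lowest cKO library thus lay above the highest control library, and the cKO libraries were the more spread. The log2 fold change was 1.53 ± 0.20 (SE; adjusted p = 2.83e-05). In raw counts Ctsb had 23321, 8110 and 19327 reads in cKO and 789, 845 and 1001 in control.

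Ctsl, on chromosome 13 (64359337 to 64370890, minus strand), encodes cathepsin L, the protease that inactivates trypsinogen. It stood at 113, 120 and 125 CPM in cKO, against 248, 211 and 265 CPM in control. The groups did not overlap, and the 3 cKO libraries lay close together. Its log2 fold change was -1.01 ± 0.17 (SE; adjusted p = 0.000175) on the TMM scale and 2.25 on library totals. Raw reads were 6698, 3990 and 7482 in cKO and 1864, 1790 and 2084 in control.

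Reads of Ctsb and Ctsl can be compared within a library, where the scale drops out. They count mRNA, and the amount and activity of the enzymes were not measured here. There were 3.48, 2.03 and 2.58 reads of Ctsb per read of Ctsl in cKO libraries 1, 2 and 3, against 0.423, 0.472 and 0.480 in the control libraries. Every cKO library thus held more Ctsb than Ctsl reads, and every control library held fewer. The log2 ratio of Ctsl to Ctsb averaged -1.40 ± 0.39 in cKO and 1.13 ± 0.10 in control (SD, n = 3 each), a difference of -2.52. The exact 2-sided permutation p was 0.1, the smallest that 3 libraries against 3 can give (0.108 after adjustment over the 14 ratios and shares compared). A 3′ tag count is 1 read per transcript end and is not divided by length, but it also depends on the annotated 3′ end, so the change of a ratio is firmer than the ratio itself.

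Reads of the genes for trypsinogen, the known substrate of both enzymes, were set against those of Ctsb and Ctsl in the same way. The sum was taken over Prss1, Prss2, Prss3, Try4, Try5 and Try10, whose similar sequences make single values uncertain. Any other trypsinogen gene lies outside this sum, so the values do not cover trypsinogen as a whole. Ctsb and Ctsl together had 46.5, 10.5 and 35.2 reads per 1000 reads of the summed genes in cKO, against 1.15, 1.44 and 1.36 in control. The log2 ratio was -5.27 ± 1.14 in cKO and -9.57 ± 0.17 in control (SD, n = 3 each), a difference of 4.30 (exact permutation p = 0.1; adjusted p = 0.108), which was 4.95 without cKO replicate 2. On the TMM scale the log2 fold change was 1.53 for Ctsb and -1.01 for Ctsl, against -4.70 for Prss2, -4.65 for Try4 and -3.09 for Try5. On library totals Ctsb stood at 4.87 and Ctsl at 2.25. The part of each side in the difference thus depends on the scale. Whether protease and trypsinogen reads came from the same cells was not tested. Of the list of 9 tested trypsinogens, chymotrypsinogens and trypsin inhibitor genes, 7 fell and 0 rose. This stands beside 20.7% of all tested genes called lower and 24% higher. An unadjusted p under 0.05 or DESeq2 gave 7 and 0 as well. On library totals 3 of these 7 were called lower in cKO, namely Prss2 (-1.78), Try4 (-1.71) and Ctrc (-1.58). Try10 was called higher on that scale (1.08; edgeR adjusted p = 0.00394). Ctrb1 (-0.74; edgeR adjusted p = 0.114), Try5 (0.005; adjusted p = 0.991) and Spink1 (adjusted p = 0.400) did not pass. Prss1 and Prss3, which did not pass on the TMM scale, were called higher on totals (1.80 and 3.94). The trypsin inhibitor gene Spink1 had a log2 fold change of -2.70 ± 0.47 (SE; adjusted p = 0.000287) on the TMM scale and 0.33 on library totals.

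**Figure D2:**
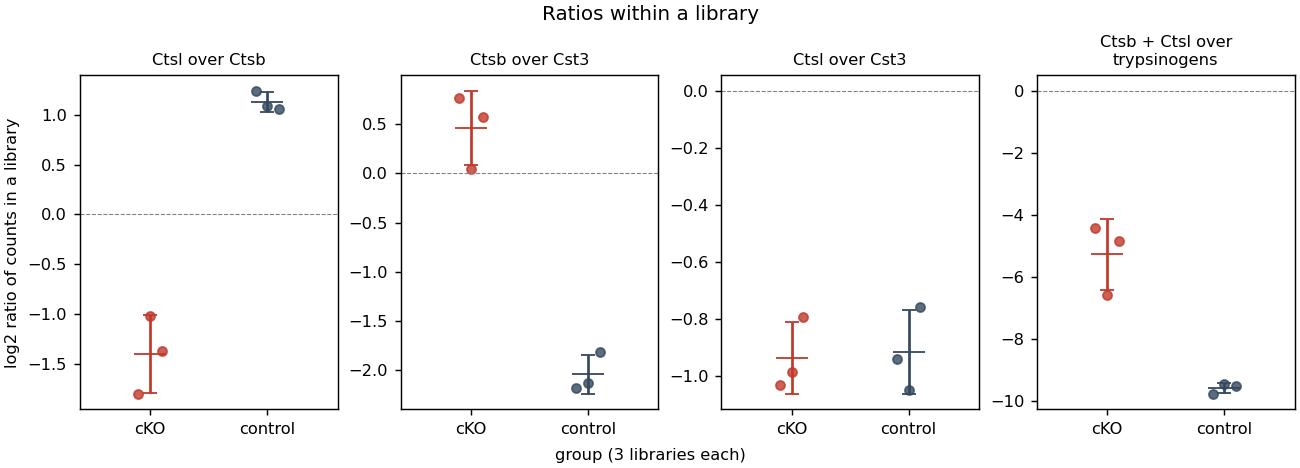
Log2 ratio of read counts within each library (vertical axes) for 4 pairs, in 3 cKO and 3 control libraries, with the mean and SD. The groups are parted for Ctsl over Ctsb, for Ctsb over Cst3 and for Ctsb plus Ctsl over the summed trypsinogen genes, and overlap for Ctsl over Cst3.

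Cst3, the inhibitor gene, lies on chromosome 2 (148871722 to 148875692, minus strand). It stood at 231, 238 and 216 CPM in cKO, against 475, 437 and 447 CPM in control, and it had the most reads of the 10 genes in each control library. Its log2 fold change was -0.99 ± 0.18 (SE; adjusted p = 0.000398) on the TMM scale and 2.28 on library totals. Reads of Ctsb per read of Cst3, as a log2 ratio, averaged 0.46 ± 0.38 in cKO and -2.04 ± 0.20 in control (SD, n = 3 each; difference 2.50; exact permutation p = 0.1; adjusted p = 0.108). All cKO libraries held more reads of Ctsb than of Cst3, and all control libraries fewer.

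The ratio of Ctsl to Cst3, by contrast, overlapped between the groups. Ctsl had 0.489, 0.505 and 0.577 reads per read of Cst3 in cKO libraries 1, 2 and 3, and 0.522, 0.483 and 0.592 in control libraries 1, 2 and 3. The log2 ratio differed by -0.02 between group means, with SDs of 0.13 in cKO and 0.15 in control (exact permutation p = 0.8). Leaving out any 1 library gave differences from -0.09 to 0.06. At 3 libraries a group, differences of that size were within the spread between replicates.

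Ctss encodes cathepsin S, which trims the invariant chain of MHC class II in antigen-presenting cells and, unlike most cathepsins, works at neutral pH. The gene lies on chromosome 3 (95526786 to 95556403, plus strand). Its levels were 193, 82.6 and 168 CPM in cKO, against 23.7, 26.9 and 30.7 CPM in control. cKO library 2 was the lowest of its group and still above every control library. The log2 fold change was 2.45 ± 0.28 (SE; adjusted p = 2.23e-05).

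Ctsh encodes the aminopeptidase cathepsin H (chromosome 9, 90054152 to 90076089, plus strand). It stood at 140, 76.6 and 126 CPM in cKO, against 22.1, 15.0 and 20.8 CPM in control, again with cKO library 2 lowest in its group. Its log2 fold change of 2.57 ± 0.23 had the smallest adjusted p of the 10 genes (SE; adjusted p = 2.04e-06).

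Ctsk, on chromosome 3 (95499256 to 95509362, plus strand), encodes cathepsin K, the collagen-degrading protease of osteoclasts that is also made by fibroblasts. It was the least abundant of the 10, with 407, 191 and 452 reads in cKO and 6, 8 and 13 reads in control. On the TMM scale these were 6.86, 5.76 and 7.54 CPM in cKO and 0.798, 0.943 and 1.65 CPM in control. The log2 fold change was 2.57 ± 0.35 (SE; adjusted p = 3.66e-05) and ran from 2.38 to 2.94 when 1 library was left out. Ctsk passed the filter on low counts through its cKO reads, as the control reads alone would not have sufficed.

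Ctsz, Ctsa and Ctsc rose by lesser amounts. Ctsz, which encodes the carboxypeptidase cathepsin Z (chromosome 2, 174427493 to 174439039, minus strand), stood at 90.0, 61.5 and 74.1 CPM in cKO, against 33.6, 29.8 and 34.7 CPM in control (log2 fold change 1.20 ± 0.17, SE; adjusted p = 5.44e-05). Ctsa, whose product is a carboxypeptidase that also protects lysosomal neuraminidase and β-galactosidase (chromosome 2, 164832873 to 164841032, plus strand), stood at 79.5, 52.7 and 66.6 CPM in cKO and 32.3, 27.8 and 31.6 CPM in control (1.12 ± 0.17; adjusted p = 0.000117). Ctsc encodes dipeptidyl peptidase I, which activates serine proteases of immune cell granules (chromosome 7, 88278085 to 88310888, plus strand). It stood at 78.9, 41.3 and 66.8 CPM in cKO and at 36.0, 32.5 and 30.5 CPM in control (0.92 ± 0.21; adjusted p = 0.00256). Its lowest cKO library came nearer to the controls than that of Ctsz or Ctsa did.

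Ctsd, on chromosome 7 (142375911 to 142388038, minus strand), encodes the aspartic protease cathepsin D, which is known to activate cathepsin B in the mouse pancreas. It stood at 390, 242 and 296 CPM in cKO, against 214, 174 and 211 CPM in control, so that cKO library 2 lay only just above the highest control. Its log2 fold change of 0.63 ± 0.20 (SE; adjusted p = 0.0192) was the smallest of the 10 in size. That call was lost without cKO replicate 1 (0.43; adjusted p = 0.0802), control replicate 1 (0.68; adjusted p = 0.0607), control replicate 2 (0.54; adjusted p = 0.117) or control replicate 3 (0.68; adjusted p = 0.0614).

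Neighbouring genes reach into the 3′ ends of 4 of the 10 genes in the GENCODE M21 annotation. Within the last 1000 bases, Ctsa is overlapped by Pltp, Ctsb by Fdft1 and Ctsz by Nelfcd, each on the opposite strand, and Ctsd by a gene model on its own strand that was not analysed here. The sources used here do not give the strand setting of the counting, and without strand the reads of such pairs cannot be told apart. Pltp rose like Ctsa (1.23 ± 0.17; adjusted p = 4.79e-05) and had 4243, 1579 and 3538 reads in cKO and 190, 203 and 210 in control. Nelfcd rose as well (0.92 ± 0.18; adjusted p = 0.000774), while Fdft1, beside Ctsb, did not pass (-0.27 ± 0.21; adjusted p = 0.320) and had at most 608 reads in any library.

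**Figure D3:**
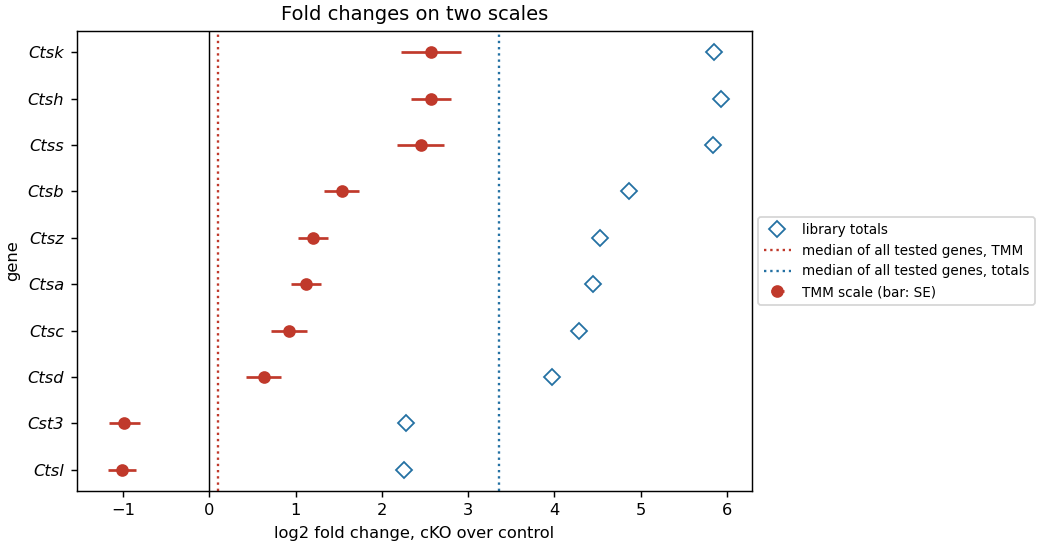
Log2 fold change of cKO over control for the 10 genes on the TMM scale (filled points, bars of 1 SE) and on library totals (open diamonds). Dotted lines mark the medians of all tested genes, 0.10 and 3.36. Ctsl and Cst3 lie below the median on both scales but below 0 on the TMM scale only.

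The cKO libraries differed among themselves in a regular way. For all 8 genes that rose, cKO library 2 was the lowest of the 3, and for 7 of them cKO library 1 was the highest. The ratio of the highest to the lowest cKO library was 2.34 for Ctss and 1.31 for Ctsk, while it was 1.11 for Ctsl and 1.10 for Cst3. Library 2 also held the most acinar reads of the cKO group: 10 acinar markers summed to 14821, 95408 and 25115 CPM in cKO libraries 1, 2 and 3, against 601695 to 693510 CPM in control. All 10 of these markers fell on the TMM scale, beside 20.7% of all tested genes called lower. On library totals edgeR called Cpa1, Cela2a, Cel, Pnlip and Rbpjl lower. The transcription factor gene Nr5a2 was called higher on that scale (1.05, edgeR adjusted p = 0.0212). Ptf1a (0.80, adjusted p = 0.0542), Bhlha15 (-0.28, adjusted p = 0.476), Cela1 (-0.50, adjusted p = 0.264) and Ctrb1 (-0.74, adjusted p = 0.114) did not pass. In RNA from a whole cell preparation, fewer cells of a type and less RNA per cell cannot be told apart.

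Within the summed reads of the 10 genes, the make-up shifted. Cst3 took 16.2% ± 3.72 of these reads in cKO and 39.5% ± 2.11 in control, and Ctsl took 8.47% ± 1.87 in cKO and 21.0% ± 1.03 in control (SD, n = 3 each). Ctsb took 22.0% ± 0.962 in cKO and 9.62% ± 0.901 in control, Ctss 9.93% ± 2.46 in cKO and 2.37% ± 0.327 in control, and Ctsh 7.77% ± 1.06 in cKO and 1.67% ± 0.225 in control. Ctsd changed least in proportion, with 21.2% ± 1.35 in cKO and 17.4% ± 0.746 in control. For each of the 10 genes the groups did not overlap and the exact 2-sided permutation p was 0.1 (adjusted p = 0.108 over the 14 ratios and shares). Shares of one whole are not independent of each other. As a share of all reads the 10 genes together made up 0.671%, 0.228% and 0.538% in cKO libraries 1, 2 and 3 and 0.0366%, 0.0355% and 0.0411% in control.

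**Figure D4:**
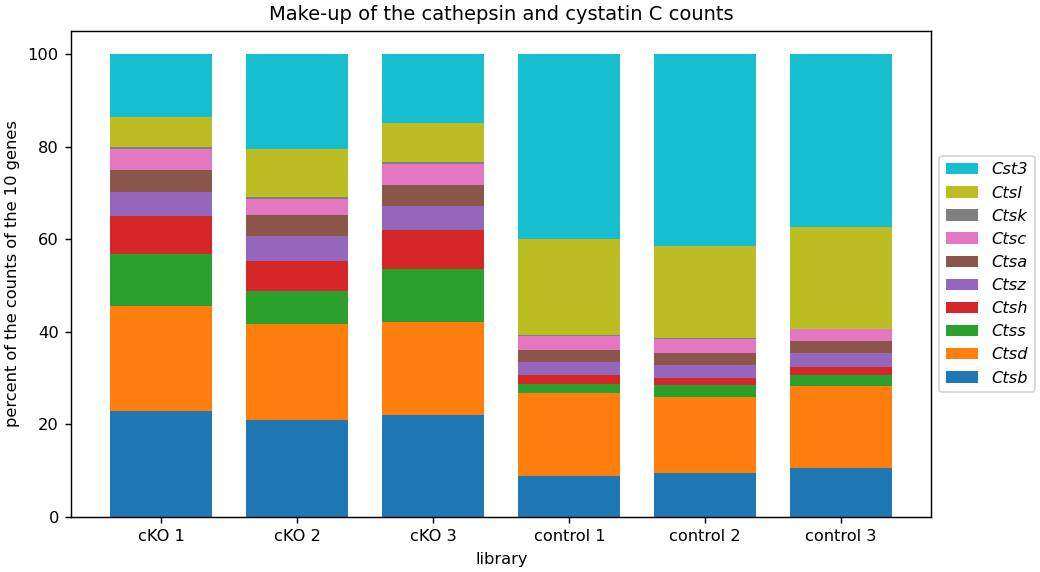
Percent of the reads of the 10 genes (vertical axis) taken by each gene, in 3 cKO and 3 control libraries. Cst3 and Ctsl fill the largest part of the control bars, and Ctsb, Ctss and Ctsh are wider in all 3 cKO bars.

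Macrophage markers and most fibroblast and stellate cell markers rose, as did most of the cathepsins. All 15 macrophage markers rose, with a median log2 fold change of 2.68, beside 24% of all tested genes called higher. Their summed level was 611 to 1243 CPM in cKO and 152 to 200 CPM in control, none was at 0 in all controls, and C1qb, C1qa and C1qc were the most abundant. Of the defining markers, Adgre1 stood at 49.3, 22.2 and 35.2 CPM in cKO, against 4.92, 5.54 and 3.05 CPM in control. Csf1r stood at 100.4, 42.3 and 87.4 CPM in cKO, against 18.2, 14.6 and 13.7 CPM in control. Cd68 stood at 52.7, 18.8 and 42.8 CPM in cKO, against 8.64, 5.30 and 6.48 CPM in control. For all 3, cKO library 2 was the lowest of its group and still above every control library. Of 10 fibroblast and stellate cell markers 9 rose, with a median of 2.39 and a summed level of 3596 to 5127 CPM in cKO and 729 to 823 CPM in control, led by Col1a2, Col3a1 and Dcn. The part of these cells in the cathepsin results was not tested.

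Set against those markers within a library, the genes divided again. Ctss had 0.156, 0.135 and 0.164 reads per read of the 15 macrophage markers in cKO and 0.118, 0.156 and 0.202 in control, so that the groups overlapped. The same overlap was seen for Ctsh and Ctsk, and for these 3 genes also per read of the fibroblast markers. Ctsb had 0.316, 0.400 and 0.316 reads per macrophage marker read in cKO, against 0.525, 0.577 and 0.835 in control, and Ctsl had 0.0908, 0.197 and 0.122 in cKO, against 1.24, 1.22 and 1.74 in control. For Ctsa, Ctsb, Ctsc, Ctsd, Ctsl, Ctsz and Cst3, all cKO libraries lay below all control libraries in reads per macrophage marker read and per fibroblast marker read. These quotients were chosen after the values were seen and carry no test.

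Other genes of the pathway were read from fixed lists. Among 10 partners and activators of the cathepsins, 7 rose and 1 fell, beside 24% of all tested genes called higher and 20.7% lower. The median log2 fold change of the 10 was 1.35. Cd74, the invariant chain that cathepsin S cleaves, rose by 3.02 ± 0.24, Lgmn, the asparaginyl endopeptidase that processes cathepsins, by 2.71 ± 0.28, Scpep1, a carboxypeptidase related to cathepsin A, by 2.04 ± 0.19, and Grn, the progranulin gene, by 1.35 ± 0.19 (SE; adjusted p from 7.57e-07 to 4.58e-05). The gene that fell was Neu1, the neuraminidase that cathepsin A protects (-0.77 ± 0.20; adjusted p = 0.00537; 2.53 on library totals), named after its value was seen.

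Of 26 other lysosomal proteins, 12 rose, 2 fell and 12 did not pass, with a median of 0.77. Those with the smallest p were the cholesterol-binding Npc2 (1.56 ± 0.19), the ganglioside activator Gm2a (1.44 ± 0.18), the hexosaminidase subunit Hexa (1.27 ± 0.20) and the acid lipase Lipa (2.04 ± 0.30). The 2 that fell, Cd63 (-0.73) and Dpp7 (-1.14), were named after their values were seen and were higher on library totals (2.54 and 2.20). Of 20 genes that sort cathepsins to lysosomes 2 rose, 4 fell and 14 did not pass, with a median of -0.01, beside 24% of all tested genes called higher and 20.7% lower. Lrp1, an endocytic receptor, rose by 2.13 ± 0.22. Gnptg, a subunit of the enzyme that makes the mannose 6-phosphate tag (-1.85 ± 0.24), the adaptor Gga2 (-1.05 ± 0.17) and the receptor Sort1 (-1.08 ± 0.23) fell, and all 3 were higher on library totals. The mannose 6-phosphate receptor gene M6pr did not pass (0.30 ± 0.21; adjusted p = 0.275), and Igf2r, the other such receptor, fell by 0.44 ± 0.16 (adjusted p = 0.0349) and was 2.85 on library totals; both were named after their values were seen.

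Among inhibitors other than cystatin C, 5 of 8 tested genes rose and 1 fell. Of all tested genes, 24% were called higher and 20.7% lower. Serpinb6a (1.02 ± 0.16), its paralog Serpinb6b (1.46 ± 0.32), Timp1, an inhibitor of matrix metalloproteases (1.39 ± 0.22), and Fetub (4.14 ± 0.75) rose. Fetub had only 2, 4 and 4 reads in control, against 174, 480 and 303 in cKO libraries 1, 2 and 3. The fetuin gene Ahsg had 47, 65 and 131 reads in cKO and 0 in every control library. Fetub and Ahsg passed the filter on low counts only through their cKO reads, and the count of 5 among 8 includes both. Serpinb9, a granzyme B inhibitor, did not pass (0.57 ± 0.40; adjusted p = 0.261). Serpinb1a, an inhibitor of cathepsin G and elastases, fell by 2.17 ± 0.18 and was 1.06 on library totals. Cstb, the intracellular cystatin B, stood at 32.1 ± 5.56 CPM in cKO and 34.1 ± 4.58 CPM in control (SD, n = 3 each) and did not pass (-0.09 ± 0.17; adjusted p = 0.716), unlike Cst3, though this difference between the 2 cystatins was not tested.

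Of 13 other cathepsin genes, 3 passed the filter on low counts and 7 had 0 reads in all 6 libraries. Ctso had 259, 85 and 325 reads in cKO and 9, 4 and 0 in control, and rose (2.91 ± 0.63; adjusted p = 0.00190). It passed that filter only through its cKO reads. Ctsw of cytotoxic lymphocytes (1.72 ± 0.87; adjusted p = 0.126) and Ctsf (0.29 ± 0.30; adjusted p = 0.448) did not pass. Ctse and Ctsg had at most 41 reads in any library and were not tested.

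**Figure D5:**
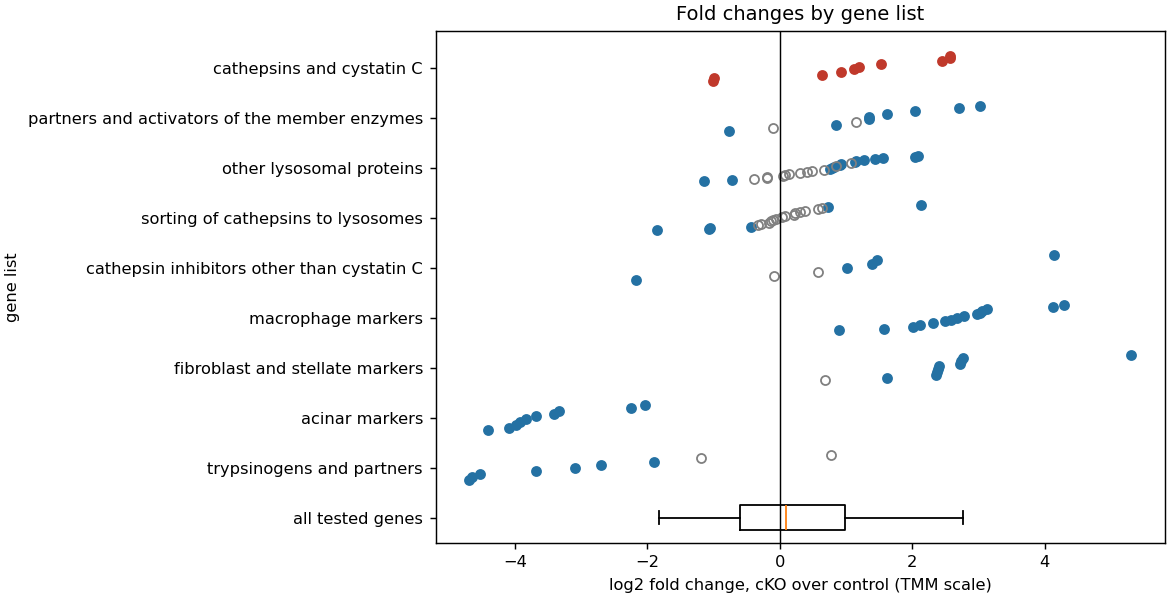
Log2 fold change of cKO over control on the TMM scale (horizontal axis) for each tested gene of 9 lists. Filled points passed at an adjusted p of 0.05, open points did not, and Ahsg, with 0 reads in every control library, is left out. The box gives the quartiles of all tested genes, with whiskers at their 5th and 95th percentiles. Macrophage and fibroblast markers lie to the right with most cathepsins, and acinar markers and most trypsinogens to the left. On library totals the median of all tested genes shifts to 3.36.

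By their profiles over the 6 libraries, measured as the root mean square difference of log2 CPM centred on each gene's mean, the genes most like Ctsb among 4306 candidates were Npc2 (0.0794), Cyba, a subunit of the phagocyte NADPH oxidase (0.0824), and Gpx3, a glutathione peroxidase (0.0935). The genes most like Ctsl were Ppp5c (0.0525), Hipk3 (0.0566) and Zfp106 (0.0592), and those most like Cst3 were Glyr1 (0.0410), Gabarap (0.0462) and Gnas (0.0493). Between Ctsl and Cst3 the difference was 0.112, while between Ctsl and Ctsb it was 1.28. These 6 points fall into 2 groups, so the measure mostly reflects the size of the group difference.

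The promoters of the 10 genes were searched for the E-box CACGTG. It is the core of the element bound by TFEB and its relatives, which are known to drive many lysosomal genes. RefSeq promoters (GRCm38.p6, 250 bases before to 50 after the start) were at hand for 8 of the 10 genes, as 9 sequences. None was at hand for Ctsb and Ctsh, so the search does not cover them. CACGTG, which reads the same on both strands, stood in those of Ctsa, Ctsd and Ctsl, and in 7.15% of all 32851 promoters. The longer palindrome TCACGTGA, which contains it, stood in those of Ctsa and Ctsd, and in 0.974% of all promoters. With a further G before it and a further C after it, this palindrome stood in 0 of the 9 sequences and in 0.326% of all promoters. Stretches of 90 bases around matches to CACGTG show 2 genes that rose and 1 that fell, with the matches in capitals. They lie at chr2:164833713-164833802 (plus strand) for Ctsa, at chr7:142387878-142387967 (minus strand) for Ctsd and at chr13:64370681-64370770 (minus strand) for Ctsl. Each stretch lies inside the GENCODE span of its gene, as the RefSeq starts used for it lie downstream of the GENCODE 5′ end.
Ctsa: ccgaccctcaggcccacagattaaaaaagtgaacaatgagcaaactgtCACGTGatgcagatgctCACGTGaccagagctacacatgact
Ctsd: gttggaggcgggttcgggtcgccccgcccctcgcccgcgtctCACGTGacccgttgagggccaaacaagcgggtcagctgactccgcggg
Ctsl: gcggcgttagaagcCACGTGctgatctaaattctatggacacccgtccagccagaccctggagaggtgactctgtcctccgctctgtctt

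In Ctsa both E-boxes are flanked as TCACGTGA, 1 just before and 1 just after the second of 2 annotated starts. Ctsd has 1 such palindrome and a further CACGTG farther upstream, outside the stretch shown. In Ctsl the letters around the E-box differ from the longer palindrome. Of the genes for these factors, Tfe3 rose by 1.35 ± 0.27 (adjusted p = 0.000892) and Mitf by 0.84 ± 0.26 (adjusted p = 0.0157), while Tfeb did not pass (1.15 ± 0.48; adjusted p = 0.0629). All 3 were named after their values were seen. Any part of these factors in the cathepsin results was not tested.

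The response element of ERR receptors, TCAAGGTCA, stood in 0.423% of all promoters and in 0 of the 9 sequences, on either strand. Its core AAGGTCA stood in 4.72% of all promoters and in 1 of the 9, the window of the first start of Ctsa. A match is a description of the letters in these windows and not a site of binding.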

How the data were processed

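Each library has 1 table of raw counts, listed by gene symbol, as the authors deposited them. Per the labels' protocols the libraries were made with a Lexogen QuantSeq kit, which reads 1 tag near the 3′ end of a transcript. The submitters' processing notes name Bowtie2, edgeR, mm10 and GRCm38 without version or role. The sources used here do not give the counter, annotation or strand setting, and mention no molecular identifiers.

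All 13132 genes that passed filterByExpr (minimum count 10, minimum total 15) were fitted with edgeR 4.0.16 in R 4.3.3 (TMM, robust glmQLFit, glmQLFTest, group as the only term). p-values were adjusted over all of them by Benjamini-Hochberg. An SE is the log2 fold change over the root of F. Ratios and shares used raw counts and exact 2-sided permutation tests (scipy 1.17.1). The fit was tested on simulated data. The alternatives were DESeq2 1.42.0, other scales, other filters, the replicate number as a term and leaving out each library.

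The 10 genes and all lists were chosen with earlier results of these data known. By rule, all 10 genes are named, with up to 4 genes of smallest p per list, the 3 most abundant markers, the tested other cathepsins and inhibitors, and 3 genes of like profile. Coordinates are from GENCODE M21 (GRCm38). One listed duct marker is not reported here.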

Additional observations from a re-analysis of the deposited data

How the results depend on the processing

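Directions and calls of the 10 genes were recomputed under 13 alternatives. On library totals Ctsl (2.25) and Cst3 (2.28) turned from lower to higher in cKO, so that 0 of the 10 genes were called lower, and over all genes 12653 were called higher and 53 lower, with the 20 most abundant genes taking 85.2% to 86.5% of control reads. Totals outside the abundant and enzyme genes gave 4628 genes called higher and 1776 lower, and a filter of at least 10 CPM in 3 libraries, which tests fewer genes and leaves out Ctsk, gave 1442 higher and 1420 lower. Under DESeq2, DESeq2's size factors, no filter and the replicate block, 8 of the 10 genes stayed called higher and 2 lower. Leaving out 1 library gave 7 or 8 higher and 2 lower, and Ctsd was the gene that lost its call.

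Same-numbered cKO and control libraries had correlations of deviations from -0.03 to 0.01, and differently numbered ones from -0.04 to 0.04. With 3 libraries a group, these values show no sign of pairing but cannot exclude it. With the replicate block 2884 genes were called higher and 2505 lower, against 3152 and 2716 without it, and the log2 fold change of Ctsd was 0.61 (adjusted p = 0.0317). The precision of Ctsk is limited by its 6 to 13 reads in the control libraries.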

Other observations

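Markers of further cell types did not move as one. Among the duct markers reported here, Krt19 (1.03 ± 0.17) and Krt7 (1.20 ± 0.29) rose and Sox9 (-1.82 ± 0.17) and Epcam fell on the TMM scale, and each of these was higher on library totals (SE; edgeR). Spp1, the most abundant of them in cKO, did not pass (-0.15 ± 0.16). Of 6 tested endothelial markers, Cldn5 rose, with 29, 13 and 23 reads in cKO and 1, 0 and 0 in control, though it did not pass by DESeq2, and Kdr (-1.37 ± 0.21) and Emcn (-1.71 ± 0.48) fell, these 3 named after their values were seen, with a median log2 fold change of -0.67 on the TMM scale and 2.55 on library totals. Cldn5 passed the filter on low counts only through its cKO reads. Of 5 tested T and B cell markers 0 passed edgeR's adjusted p of 0.05, 1 had an unadjusted p under 0.05 and 0 passed by DESeq2. The summed level of the 7 listed was 4.43 to 8.02 CPM in cKO and 0.943 to 5.45 CPM in control.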
